A study of Mus musculus with 16 samples.

Results

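The 10 immediate early AP-1 genes described here are Fos, Fosb, Fosl1, Fosl2, Jun, Junb, Jund, Atf3, Egr1 and Ier3. They were chosen by name from the 46078 Ensembl genes counted in 16 RNA-seq libraries of mouse intestinal organoids. All 10 passed the filter on low counts, among 16510 genes tested, although Fosb and Fosl1 did so with few reads. The questions were how each gene differed between the genotype labels within a medium and day, and between culture days within a label.

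AP-1 is a dimeric transcription factor in which a Fos protein pairs with a Jun protein through leucine zippers, or Jun proteins pair with each other. Atf3 and other members of the wider bZIP class can take the place of a Fos protein. Fos, Egr1, Ier3 and their like are called immediate early genes because growth factors and stress switch them on through MAP kinases without new protein synthesis, and their transcripts decay fast. In gut epithelium AP-1 is known as an output of EGF receptor and JNK signalling, and Jun has been described as a partner and a target of beta-catenin and TCF4, the pair that becomes active when Apc is lost.

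Organoids are closed epithelia that crypt cells of the intestine form when grown in a gel. Cells carried Lgr5-EGFP-IRES-CreERT2, which puts a tamoxifen-inducible Cre under the stem cell gene Lgr5, alone in wild type organoids or together with Apc fl/fl, and Villin-CreERT2 Apc fl/fl mice are also named as a source. All were of the background C57BL6. Apc was recombined in culture with 4OH-tamoxifen, and wild type cells then received mCherry and Apc-/- cells Venus from a viral vector, but the labels do not give how many lines, animals or cultures stand behind the libraries. All cultures received EGF, R-spondin and Noggin. The 6 groups were libraries labelled wild type and libraries labelled Apc mutant without conditioned medium on day 2 (n = 2 each, replicates 4 and 5), and libraries with conditioned medium titled WTCM (labelled wild type) and APCCM (labelled Apc mutant) on day 2 and on day 4 (n = 3 each). Conditioned medium came from wild type or Apc-/- cultures per the protocol, while the treatment label names the Apc mutant medium for all 12 libraries, WTCM included. Ages were not given.

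These facts of the series touch every result below. Gene counts per library ranged from 17986815 to 29152692 with conditioned medium and from 8325979 to 13027701 without it. Notum, a Wnt target, stood at 258 to 312 CPM (the usual counts-per-total unit, with the total scaled by TMM) in untreated libraries labelled Apc mutant and at no more than 1.03 CPM in all 12 conditioned medium libraries, so this check of the labels failed for the APCCM libraries. APCCM and WTCM may therefore name the source of the medium rather than the cells, and "label" is used for what the labels say. Nkd1 went as Notum did, at 440 to 533 and at no more than 4.72 CPM in these libraries. Axin2 stood at 672 to 777 CPM in untreated mutant, 156 to 174 CPM in untreated wild type and 171 to 353 CPM in conditioned medium. It was lower in APCCM than in WTCM on both days. Apc itself stood at 218 to 249, 69.3 to 76.2 and 237 to 281 CPM in the same order. Media also differed in library content: histone, small RNA and Gm26917 genes held 8.23 to 12.1% of counts with conditioned medium against 0.0193 to 0.0285% without it. Xist stood at 1.17 to 11.4 CPM in conditioned medium and at 1940 to 3710 CPM without it, and the Y-linked gene Ddx3y at 86.9 to 129 and at 0 to 0.164 CPM, the levels of male cells in conditioned medium and of female cells without it. Medium, library content and source animal cannot be told apart. Epcam, which defines epithelium, stood at 424 and 425 CPM in untreated libraries labelled Apc mutant and at 1008 CPM or more in every other library, and Cdh1 at 862 CPM or more in all 16. The 9 stromal markers summed to 4.19 to 8.57 CPM per library in the other 5 groups and to 271 and 287 CPM in untreated libraries labelled Apc mutant, where Vim alone held 270 and 285 CPM. Col1a1, at 0.416 and 0.857 CPM, and Pdgfra, at 0.485 and 0.857 CPM, were also highest there, against at most 0.163 and 0.306 CPM elsewhere. Dcn, Lum and Col3a1 had 0 counts in all libraries, and Pdgfrb was highest in APCCM on day 4, at 2.49 to 2.87 CPM. Between untreated labels 3 of 4 stromal markers tested were called higher and 1 lower. Of 3 immune markers tested 1 was called higher and 2 lower. These counts stand beside 32.4 and 30.1% of all genes. The part of these markers in the results was not tested. Replicate 1 of WTCM on day 4 stood apart from the other libraries of its group (chi-square per degree of freedom 39.9 and 42.2, against 3.30 to 6.08 for the other pairs within groups), and values of the 10 genes without it are given where a call rests on it. Without it the lists of related genes described further down had the same number of calls between labels on day 4. The exception was the list of MAP kinase feedback genes, with 4 in place of 6.

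The promoters of Fos and Jun are shown because these partner genes moved in opposite directions. Both are the 250 bases before the start site in RefSeq's table for GRCm38.p6, read 5′ to 3′ on the strand of the gene. Fos lies on the plus strand of chromosome 12 (chr12:85473640-85473889) and Jun on the minus strand of chromosome 4 (chr4:95052223-95052472). Capitals mark the motifs found.
Fos: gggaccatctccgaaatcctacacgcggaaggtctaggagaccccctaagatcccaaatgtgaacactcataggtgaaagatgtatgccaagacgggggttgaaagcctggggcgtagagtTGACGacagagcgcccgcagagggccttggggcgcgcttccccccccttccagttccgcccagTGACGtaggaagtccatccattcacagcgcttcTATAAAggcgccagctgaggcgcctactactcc
Jun: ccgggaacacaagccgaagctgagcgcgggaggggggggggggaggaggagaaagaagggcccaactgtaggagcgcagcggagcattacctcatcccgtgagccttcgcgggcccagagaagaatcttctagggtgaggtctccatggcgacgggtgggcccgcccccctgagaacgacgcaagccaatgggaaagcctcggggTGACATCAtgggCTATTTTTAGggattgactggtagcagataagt
The Fos window holds TGACG, the core of the cyclic AMP response element that CREB and ATF proteins bind, starting 129 and 66 bases before the start site, and the TATA box TATAAA 33 bases before it. The Jun window holds TGACATCA, an AP-1-like element, 45 bases before the start site, and a MEF2 site 33 bases before it. These last motifs were added after the Jun promoter had been read. Of 32851 promoters of this length, 17.8% held TGACG, 12.4% TATAAA, 2.93% TGACATCA and 2.92% a MEF2 site, on either strand. The table held 8 of the 10 promoters, and TGACG stood in 4 of them, those of Fos, Fosb, Junb and Atf3. Start sites in this table need not be those of the gene bounds given below. The Jund window ended at base 70697738 of chromosome 8, upstream of the gene start at 70698949. The windows of Fosl2 and Atf3 lay inside the bounds of these genes. The letters of the full response element TGACGTCA (1.55% of all promoters, and a motif that contains TGACG), the AP-1 site TGANTCA (6.75%), the ETS site CCGGAA (12%) and the CArG box bound by SRF (1.47%) were in none of these 8 windows. Sites more than 250 bases before the start site lay outside these windows and were not searched. The absence of a motif here therefore does not mean that a gene lacks it. The matches are a description of the letters and not of bound sites.

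Levels between genes were compared as CPM per kilobase of exon. Jund, the most constitutive Jun gene, was highest of the 10 in all 4 conditioned medium groups, at 85.5 to 99.9 CPM per kb, and its libraries did not overlap those of the next gene. Junb, Fosl2 and Jun followed in all 4 of these groups, with overlapping ranges of Junb and Fosl2 in both WTCM groups and of Fosl2 and Jun in WTCM on day 2. Fosb and Fosl1 were lowest, at 0.0575 to 0.143 and 0.233 to 0.475 CPM per kb. The order differed in untreated libraries labelled Apc mutant, where Jun led at 27.3 CPM per kb and Fos, at 0.897, stood ninth. In untreated wild type Jund led at 20.3 CPM per kb, its range overlapping that of Junb, and the ranges of Fos and Jun, at 6.28 and 5.74, overlapped too.

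The makeup of each family showed the same contrast within each library. Jun supplied 57.0 and 65.2% of the Jun family's CPM per kb in untreated libraries labelled Apc mutant, against 14.1 and 19.1% in untreated wild type. Fos supplied 5.58 and 5.69% of the Fos family in those mutant libraries, against 35.5 and 39.7% in wild type. Fosl1 supplied 12.05% of the Fos family in both of these libraries, against 2.01 and 3.26%. In conditioned medium Jund supplied 66.8 to 72.2% of the Jun family and Fosl2 65.6 to 83.4% of the Fos family in all 12 libraries. Jun supplied 7.73 to 8.18% of its family in APCCM on day 4, against 14.3 to 14.4% in WTCM on that day. The Jun family as a whole stood at 118 to 145 CPM per kb in conditioned medium and at 23.0 to 52.1 without it.

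**Figure D1:**
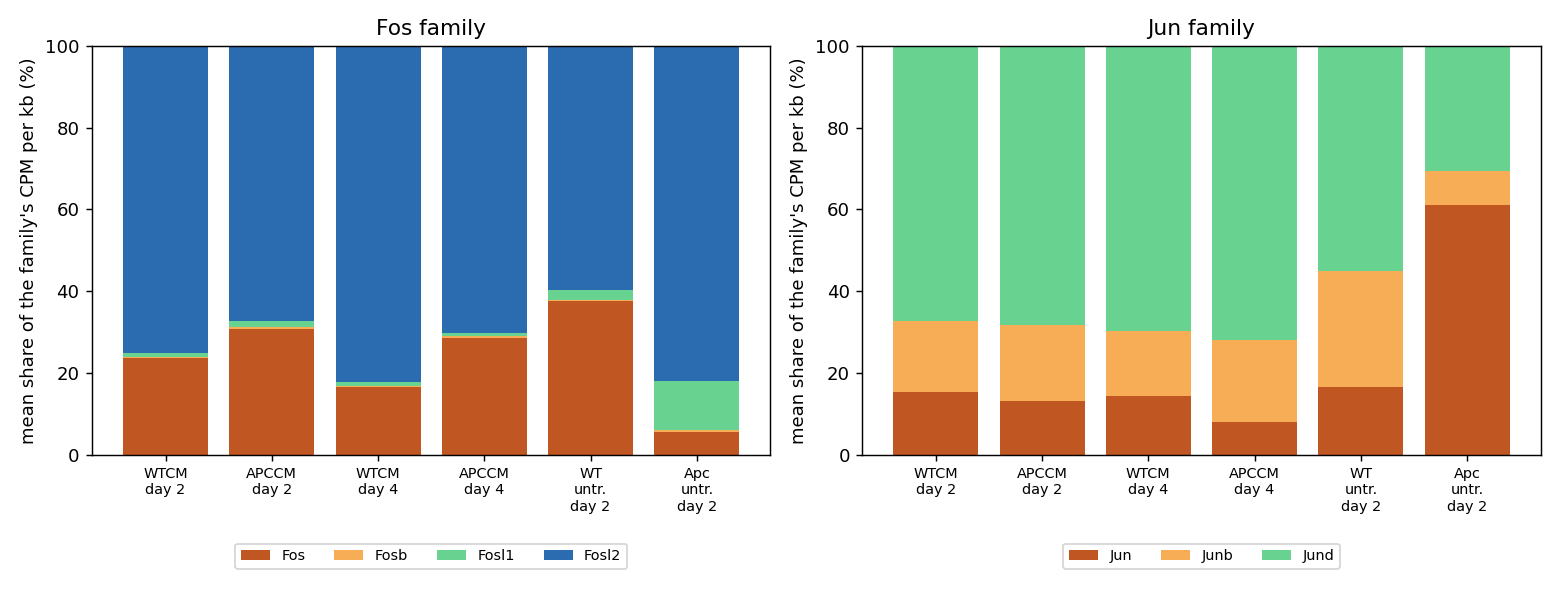
Mean share of each gene in its family's summed CPM per kb of exon (y axis, percent) in the 6 label groups (x axis), for the Fos family (left) and the Jun family (right); bars stack to 100%. Untreated libraries labelled Apc mutant stand apart, with 61.1% Jun in the Jun family and 5.64% Fos in the Fos family.

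Fos (ENSMUSG00000021250, GRCm38 chromosome 12, 85473890 to 85477273, plus strand) encodes the founding Fos subunit, which binds DNA only as a dimer with a Jun protein. Untreated libraries labelled Apc mutant held 2.08 and 2.14 CPM and untreated wild type 16.1 and 13.4 CPM. The mutant values are the lowest of the 16 libraries, on 30 and 35 counts, and the log2 fold change was -2.81 (SE 0.20, adjusted p = 9.8e-12). Of 11 epithelial markers 7 were called lower and 3 higher in these mutant libraries, beside 30.1 and 32.4% of all genes tested. Their sum was 3364 and 3527 CPM against 7507 and 7510 CPM in untreated wild type, and Lyz1, a Paneth cell gene, made up most of that gap, at 5.68 and 5.996 CPM against 2463 and 2609 CPM. Krt20 had 0 counts there, while the stem cell gene Lgr5 was higher, at 260 and 276 against 135 and 152 CPM, as were Krt18 and Cdx2. The part of this in the Fos difference was not tested. In bulk RNA, fewer cells that express a gene and less RNA per cell cannot be told apart. In conditioned medium the direction was the opposite. APCCM libraries held 24.7, 25.1 and 20.4 CPM on day 2, and WTCM libraries 17.1, 13.4 and 14.0 CPM (log2 fold change 0.65, SE 0.10, adjusted p = 6.6e-05). On day 4 APCCM held 22.7, 22.4 and 19.6 CPM and WTCM 11.3, 11.7 and 9.98 CPM (0.97, SE 0.11, adjusted p = 3.6e-07; 0.99 without replicate 1 of WTCM). Every APCCM library was above every WTCM library on both days. The epithelial marker sum was also higher in APCCM, at 8297 to 8654 against 6847 to 7107 CPM on day 2 and 8079 to 8262 against 7388 to 7886 CPM on day 4. Of the 11 markers 5 were called higher and 2 lower on day 2, and 3 higher and 1 lower on day 4. These counts stand beside 16.7 and 15.6% of all genes. On day 2 Lyz1 stood at 2253 to 2394 against 1405 to 1557 CPM and Muc2 at 650 to 855 against 324 to 358 CPM. Epcam, Vil1, Cdx2 and Lgr5 had lower ranges in APCCM there, Epcam at 1038 to 1059 against 1066 to 1084 CPM. The part of these markers was not tested. From day 2 to day 4 Fos fell by 0.44 on the log2 scale in WTCM (SE 0.11, adjusted p = 0.00468; -0.46 and 0.0109 without replicate 1 of WTCM on day 4). That call was lost without replicate 1 of WTCM on day 2, the highest of its group, which left -0.32 at an adjusted p of 0.0564. In APCCM the change by day was -0.12 (95% interval -0.34 to 0.10, adjusted p = 0.421). The growth of the label difference between days, 0.32, did not pass the test (95% interval -0.01 to 0.65, adjusted p = 0.384).

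Jun (ENSMUSG00000052684, GRCm38 chromosome 4, 95049034 to 95052222, minus strand) encodes the main activating partner of Fos and the substrate that names JNK. Untreated libraries labelled Apc mutant held 79.4 and 94.7 CPM, the highest of all 16, and untreated wild type 22.6 and 14.0 CPM, the lowest (log2 fold change 2.22, SE 0.13, adjusted p = 1.3e-13). In conditioned medium on day 2, APCCM held 59.9, 58.1 and 51.7 CPM and WTCM 68.03, 57.8 and 60.1 CPM. These groups overlapped, with a difference of -0.13 (95% interval -0.33 to 0.06, adjusted p = 0.326). On day 4 they lay apart, at 35.4, 34.2 and 35.3 CPM in APCCM and 64.4, 66.4 and 63.8 CPM in WTCM (-0.89, SE 0.09, adjusted p = 1.0e-07). Leaving out replicate 1 of WTCM on day 4 gave -0.90. Jun fell by 0.69 from day 2 to day 4 in APCCM (SE 0.09, adjusted p = 4.1e-06), while WTCM gave 0.06 (95% interval -0.13 to 0.26, adjusted p = 0.644). The label difference itself changed between days by -0.76 (SE 0.13, adjusted p = 7.8e-04; 0.00275 without replicate 1 of WTCM on day 4). Jun was the only one of the 10 to pass this interaction test, which 2.13% of all genes tested passed (0.884% higher and 1.24% lower). Junos, an antisense gene, shares 232 exon bases with Jun and held 1 to 44 counts per library.

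Within each library the 2 partner genes can be set against each other with no scaling between libraries. This ratio was chosen after their values had been seen and carries no test. Fos counts per Jun count were 0.0262 and 0.0226 in untreated libraries labelled Apc mutant and 0.711 and 0.961 in untreated wild type, a ratio of group means 34.3-fold lower. In conditioned medium on day 2 they were 0.413, 0.433 and 0.395 in APCCM against 0.252, 0.232 and 0.233 in WTCM. On day 4 they were 0.642, 0.654 and 0.554 against 0.175, 0.177 and 0.156. Groups did not overlap in any of these comparisons, and the group means were 1.73-fold higher in APCCM on day 2 and 3.64-fold higher on day 4.

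**Figure D2:**
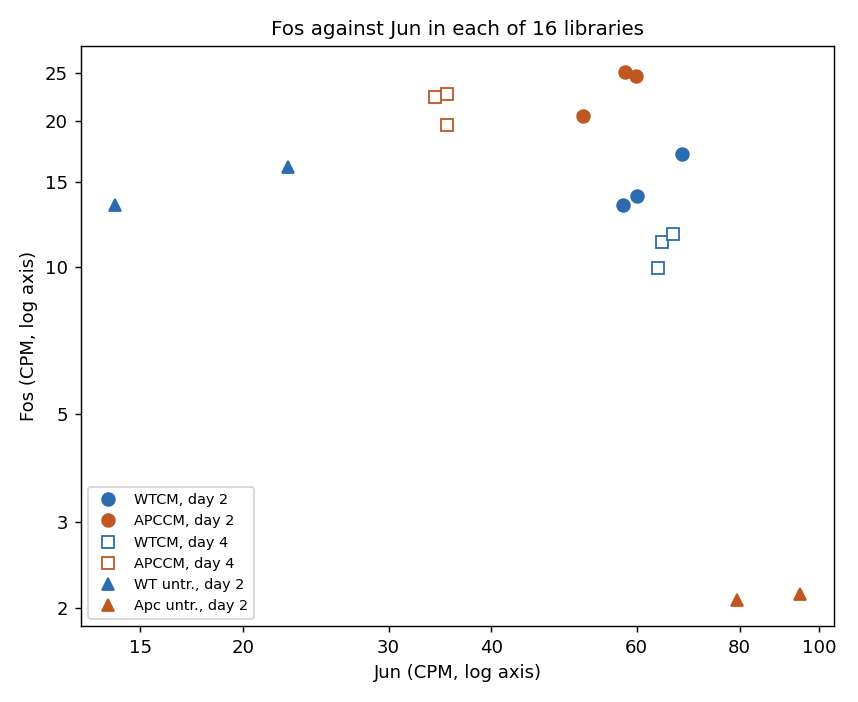
Fos (y axis) against Jun (x axis) in CPM, both on log axes, with 1 point per library and colour and shape for the label group. Untreated libraries labelled Apc mutant lie at the lower right, with Fos at 2.08 and 2.14 CPM and Jun at 79.4 and 94.7 CPM, and APCCM on day 4 separates from WTCM on day 4 along both axes.

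Fosl1 (ENSMUSG00000024912, GRCm38 chromosome 19, 5447547 to 5455946, plus strand) encodes Fra-1, a Fos protein without the transactivation domain of Fos and often linked to migrating or injured epithelium. It stood at 3.88 and 3.92 CPM in untreated libraries labelled Apc mutant, against 1.14 and 0.655 CPM in untreated wild type (log2 fold change 2.06, SE 0.37, adjusted p = 3.5e-05). In conditioned medium all 12 libraries lay between 0.295 and 1.12 CPM, on 7 to 22 counts, and no comparison passed. The widest of these differences was 0.81 on day 2 (95% interval 0.02 to 1.59, adjusted p = 0.122), where APCCM lay above WTCM without overlap. The label difference on day 4 was 0.27 (95% interval -0.58 to 1.12, adjusted p = 0.703). By day it was -0.19 in WTCM (adjusted p = 0.775) and -0.72 in APCCM (-1.49 to 0.05, adjusted p = 0.138), which became -1.12 at an adjusted p of 0.0452 without replicate 1 of APCCM on day 4. Ccdc85b, a protein-coding gene on the opposite strand, shares 1163 of the 2033 exon bases of Fosl1, and its 3 to 153 counts cannot be separated from it without the strand setting.

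Fosb (ENSMUSG00000003545, GRCm38 chromosome 7, 19302696 to 19310051, minus strand), the closest relative of Fos and equally transient, held 0 to 22 counts per library. It passed in no comparison. The label difference in conditioned medium on day 2 was 1.31, with 1.13, 0.637 and 0.913 CPM in APCCM against 0.368, 0.460 and 0.249 CPM in WTCM (SE 0.46, adjusted p = 0.0549). The groups did not overlap, and at this depth the test changed side with the settings given in the closing section. The other differences were 1.02 between untreated labels (95% interval -1.35 to 3.38, adjusted p = 0.427), 0.27 between labels on day 4 (adjusted p = 0.757), and by day 0.50 in WTCM (adjusted p = 0.517) and -0.54 in APCCM (adjusted p = 0.390).

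Fosl2 (ENSMUSG00000029135, GRCm38 chromosome 5, 32135801 to 32157842, plus strand) encodes Fra-2 and had the most reads of the Fos family, 885 to 6109 per library. It stood at 126 and 127 CPM in untreated libraries labelled Apc mutant and at 95.4 and 96.6 CPM in untreated wild type (0.40, SE 0.06, adjusted p = 2.9e-06). In WTCM it rose from 200, 190 and 191 CPM on day 2 to 226, 221 and 226 CPM on day 4 (0.21, SE 0.05, adjusted p = 0.00140; 0.00607 without replicate 1 on day 4). In APCCM it lay between 204 and 220 CPM on both days, and the change was 0.05 (95% interval -0.05 to 0.15, adjusted p = 0.490). Label differences in conditioned medium were 0.11 on day 2 (95% interval 0.01 to 0.22, adjusted p = 0.0927) and -0.05 on day 4 (-0.15 to 0.05, adjusted p = 0.527). With DESeq2 the day 2 difference was 0.12 and passed (adjusted p = 0.0326).

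Junb (ENSMUSG00000052837, GRCm38 chromosome 8, 84974484 to 84978718, minus strand) and Jund (ENSMUSG00000071076, GRCm38 chromosome 8, 70698949 to 70700616, plus strand) encode the other Jun subunits, weaker activators that can restrain Jun. Junb stood at 5.20 and 12.7 CPM in untreated libraries labelled Apc mutant and at 34.4 and 14.3 CPM in untreated wild type (-1.47, SE 0.28, adjusted p = 6.4e-05). Without replicate 4 of wild type the difference was -0.65 and no longer passed (adjusted p = 0.0574). Jund stood at 18.4 and 28.3 CPM against 47.3 and 20.6 CPM. Those groups overlapped: -0.57 (SE 0.21, adjusted p = 0.0190) was lost without replicate 4 of the mutant (-0.30, adjusted p = 0.251) and turned to 0.19 without replicate 4 of wild type (adjusted p = 0.385). Replicates of 1 untreated group differed by 2.44-fold and 2.41-fold in Junb and by 1.54-fold and 2.29-fold in Jund. Replicate 5 of the mutant was above replicate 4 in 10 of 10 genes, against 45.5% of all genes tested. Replicate 4 of wild type was above replicate 5 in 8 of 10, against 43.3%. In each group the higher library was also the deeper one, at 13027701 against 11597252 and 10910106 against 8325979 gene counts. The part of depth in this was not tested.

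In conditioned medium Junb and Jund differed less between replicates. Junb held 58.5, 61.1 and 54.7 CPM in APCCM against 55.4, 46.5 and 52.2 CPM in WTCM on day 2, with overlap (0.18, 95% interval -0.17 to 0.52, adjusted p = 0.487). With only the groups compared, this difference of 0.18 passed (adjusted p = 0.0459). On day 4 Junb held 67.99, 63.1 and 61.2 CPM against 58.9, 49.2 and 48.6 CPM, without overlap, and the difference of 0.30 did not pass (95% interval -0.04 to 0.64, adjusted p = 0.201). Fitted on these groups alone, with no untreated library in the spread, the same difference of 0.30 had an adjusted p of 0.00206. Its changes by day were 0.02 in WTCM (95% interval -0.32 to 0.36) and 0.14 in APCCM (-0.20 to 0.48), at adjusted p of 0.954 and 0.551. Jund lay between 133 and 171 CPM in all 12 libraries, and its label differences were 0.11 and 0.02 on days 2 and 4 (95% intervals -0.17 to 0.40 and -0.27 to 0.30). By day it changed by 0.21 in WTCM (-0.08 to 0.49, adjusted p = 0.266) and by 0.11 in APCCM (-0.18 to 0.39, adjusted p = 0.598), with no overlap between days in either. The WTCM value had an adjusted p of 0.00442 with no filter on low counts and of 0.00488 with only the groups compared. Junb shares 173 exon bases with Prdx2, which had 1969 to 4586 counts per library, and Jund shares 877 of its 1668 exon bases with the antisense gene Gm11175, which had 0 to 33.

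Atf3 (ENSMUSG00000026628, GRCm38 chromosome 1, 191170296 to 191218039, minus strand) is a stress-induced bZIP factor that can pair with Jun proteins. It stood at 21.7 and 22.2 CPM in untreated libraries labelled Apc mutant and at 9.16 and 8.40 CPM in untreated wild type (1.32, SE 0.17, adjusted p = 3.4e-07). All conditioned medium libraries were below both, at 2.49 to 4.97 CPM. On day 2 APCCM held 2.92, 4.29 and 4.97 CPM against 3.08, 2.91 and 2.49 CPM in WTCM. These groups overlapped, through replicate 1 of APCCM alone, and the difference of 0.52 had an adjusted p of 0.0533, or 0.71 and 0.00742 without that library. With all libraries kept, the difference passed with RLE size factors (adjusted p = 0.0471), with no filter on low counts (0.0323) and with DESeq2 (0.0456). On day 4 APCCM held 2.84, 3.10 and 3.38 CPM against 3.31, 3.94 and 2.70 CPM, also with overlap (-0.08, 95% interval -0.48 to 0.32, adjusted p = 0.833). By day it gave 0.21 in WTCM (-0.19 to 0.62, adjusted p = 0.438) and -0.38 in APCCM (-0.78 to 0.02, adjusted p = 0.130). Without replicate 1 of APCCM on day 2 the latter was -0.58 and passed (adjusted p = 0.0193).

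Egr1 (ENSMUSG00000038418), a zinc finger factor outside AP-1 that shares its upstream MAP kinase and SRF inputs, was higher in APCCM on both days. APCCM held 26.4, 26.4 and 26.1 CPM on day 2 against 20.5, 17.7 and 16.1 CPM in WTCM (0.53, SE 0.11, adjusted p = 0.00160). On day 4 the values were 50.2, 45.0 and 37.2 CPM against 34.2, 28.8 and 26.9 CPM (0.56, SE 0.10, adjusted p = 3.3e-04; 0.66 without replicate 1 of WTCM). Neither day had any overlap. It rose with time under both labels, by 0.72 in WTCM (SE 0.11, adjusted p = 3.9e-05; 0.62 and 4.8e-04 without replicate 1 of WTCM on day 4) and by 0.75 in APCCM (SE 0.10, adjusted p = 9.7e-06). Untreated libraries held 12.8 and 16.1 CPM under the mutant label and 16.4 and 13.6 CPM under wild type, a difference of -0.06 (95% interval -0.44 to 0.32, adjusted p = 0.786).

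Ier3 (ENSMUSG00000003541, GRCm38 chromosome 17, 35821684 to 35822923, plus strand) encodes a short-lived regulator of ERK signalling and cell survival. It was higher under the mutant label in all 3 comparisons of labels. Untreated libraries held 18.2 and 22.1 CPM against 11.2 and 9.27 CPM (0.97, SE 0.16, adjusted p = 9.8e-06). APCCM held 9.16, 11.2 and 9.89 CPM on day 2 against 6.81, 5.93 and 8.16 CPM in WTCM (0.53, SE 0.13, adjusted p = 0.00626). On day 4 it held 10.9, 8.73 and 9.12 CPM against 7.21, 6.36 and 6.28 CPM (0.54, SE 0.13, adjusted p = 0.00498; 0.60 without replicate 1 of WTCM). The groups did not overlap in any of these, and changes by day were -0.08 in WTCM and -0.07 in APCCM, neither past the threshold (adjusted p = 0.716 and 0.722).

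**Figure D3:**
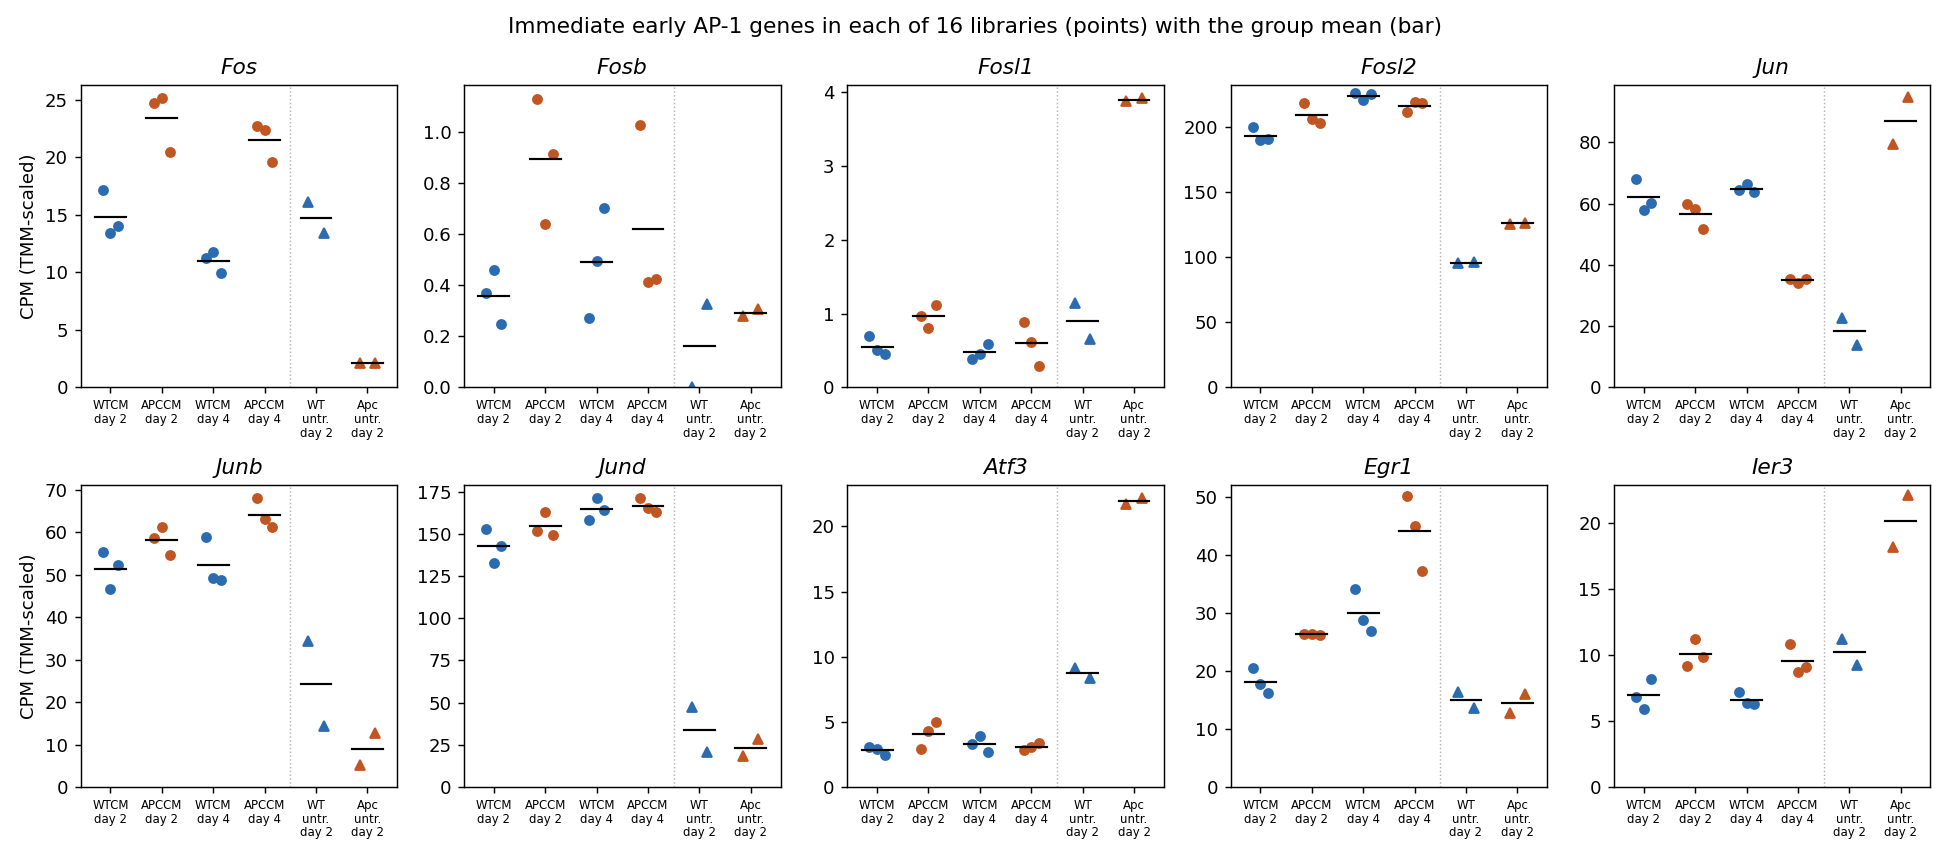
CPM (y axis, TMM-scaled, from 0) of each of the 10 genes in each of 16 libraries (points) with the mean of the group (bar), for the 6 label groups (x axis). Fos is lowest and Jun highest in untreated libraries labelled Apc mutant, and Jun in APCCM on day 4 (34.2 to 35.4 CPM) lies below the other conditioned medium groups (51.7 to 68.03 CPM).

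Set against all genes, the counts of called members were as follows. Between untreated labels 5 rose (Fosl1, Fosl2, Jun, Atf3 and Ier3) and 3 fell (Fos, Junb and Jund), while 62.5% of all genes tested were called there (32.4% higher and 30.1% lower), so a call is not particular to these 10. In conditioned medium 3 rose on day 2 (Fos, Egr1 and Ier3), where 16.7% of all genes were called (8.54% higher and 8.15% lower). That share rests on 2755 genes, which became 1725 without replicate 3 of APCCM on day 2. On day 4 the same 3 rose and Jun fell, with 15.6% of all genes called (7.83% higher and 7.8% lower). Between days 3 genes were called in WTCM and 2 in APCCM, where 24.1% of all genes (12.5% higher and 11.6% lower) and 23.9% (12.2% higher and 11.7% lower) were. Groups did not overlap for 7, 6 and 6 members in the comparisons of labels, beside 75.7, 34.5 and 34.9% of all genes, and for 4 and 4 in the comparisons of days, beside 41.3 and 39.7%. The median log2 fold change of the 10 was 0.68, 0.52 and 0.27 between labels and 0.14 and -0.10 between days, where the median over all genes was at most 0.00429 in size.

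**Figure D4:**
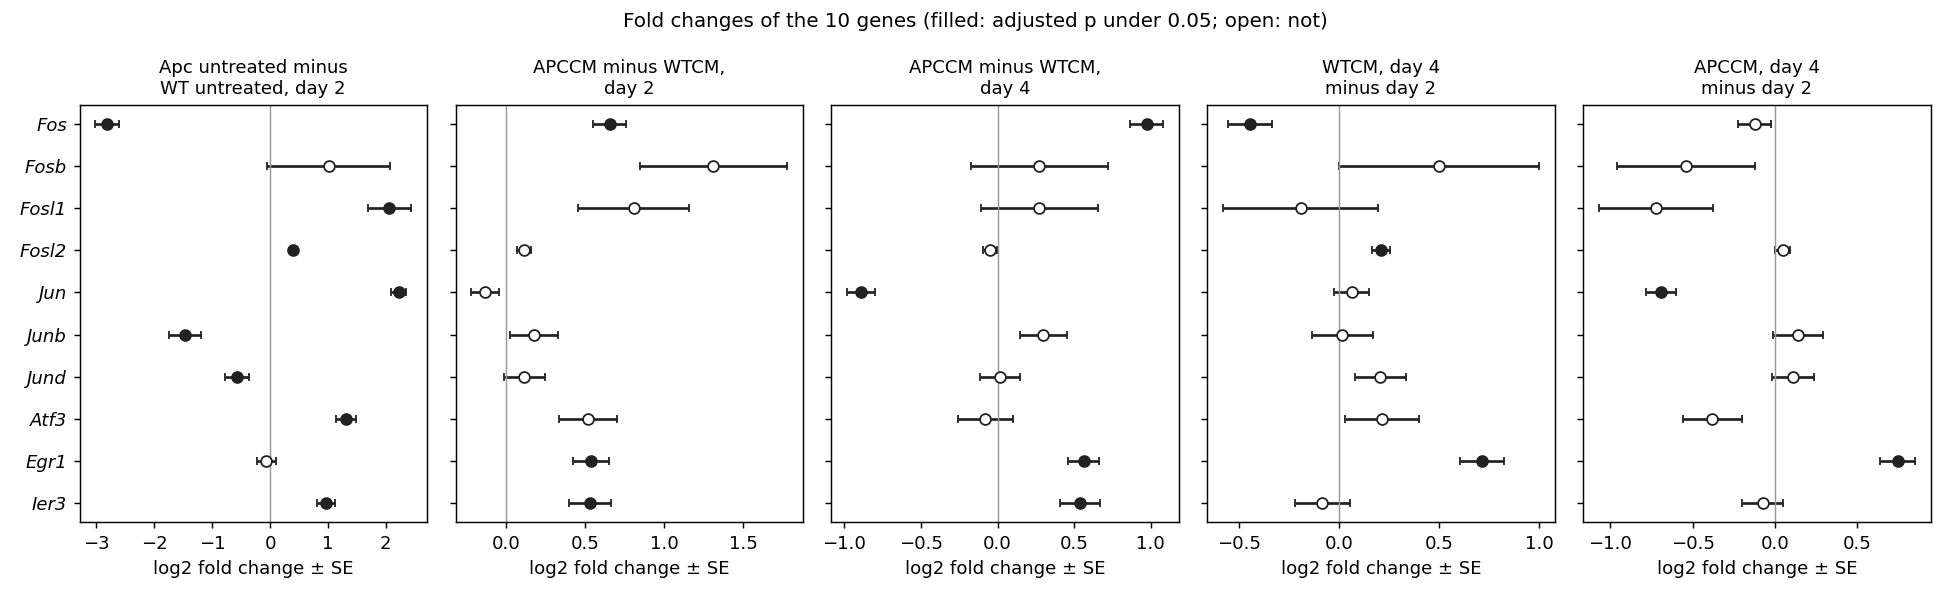
Log2 fold change ± SE (x axis) of the 10 genes (y axis) in the 5 comparisons of labels or days; filled points had an adjusted p under 0.05. Fos and Jun lie on opposite sides of 0 in the untreated comparison (-2.81 and 2.22) and, the other way round, in conditioned medium on day 4 (0.97 and -0.89).

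The label difference on day 2 in conditioned medium was also tested against that without it, a comparison added after the values had been seen. It differed for 7 of the 10 genes, beside 53.1% of all genes tested (26.7% higher and 26.4% lower). It was higher in conditioned medium for Fos (3.47, SE 0.23, adjusted p = 2.8e-12), Junb, Egr1 and Jund, and lower for Jun (-2.35, SE 0.16, adjusted p = 3.2e-12), Atf3 and Fosl2. The call for Egr1 was lost without replicate 4 of the untreated mutant (0.44, adjusted p = 0.0994) or of untreated wild type (0.45, adjusted p = 0.146). That for Jund was lost without the first of these (0.42, adjusted p = 0.168), with DESeq2 (adjusted p = 0.129) and with the replicate block (adjusted p = 0.0608), and it turned to -0.07 without the second. Medium was confounded with library content and animal, as given above. APCCM and WTCM may also name the source of the medium rather than the cells. The label differences set against each other here may then not be the same contrast.

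Reported targets of AP-1 were examined as a list. Of 20 such genes 13 were tested, and 9 rose and 0 fell between labels in conditioned medium on day 2, and 8 rose and 0 fell on day 4, beside 16.7 and 15.6% of all genes called in either direction. The list's median log2 fold change was 0.54 and 0.61, beside 0 over all genes. Areg, an EGF receptor ligand, stood at 85.4 ± 3.77 CPM in APCCM on day 2 against 33.7 ± 3.31 CPM in WTCM (SD, n = 3 each; 1.34, SE 0.07, adjusted p = 5.4e-12). Plaur, the urokinase receptor, stood at 15.4 ± 1.11 against 6.96 ± 1.33 CPM on day 2 and at 11.5 ± 1.55 against 4.74 ± 0.896 CPM on day 4 (1.14 and 1.27, adjusted p = 1.9e-05 and 9.8e-06). Tgfb1, a growth inhibitor of epithelium, stood at 11.9 ± 1.28 against 5.85 ± 0.879 CPM on day 2 (1.02, adjusted p = 1.1e-05). Hmox1, the heme-degrading enzyme, gave 1.10 on day 4 (adjusted p = 8.6e-04). Between untreated labels 9 of the list rose and 1 fell, beside 62.5% of all genes called. Vim, an intermediate filament gene that is also a stromal marker, took 270 and 285 CPM there of a stromal marker sum of 271 and 287, against 2.91 to 5.84 CPM in every other library. Of 9 stromal markers 4 were at 0 counts in that group. By day, 2 rose and 5 fell in WTCM and 2 rose and 4 fell in APCCM, beside 24.1 and 23.9% of all genes called, with Areg down by 0.59 and 1.09 on the log2 scale and Hbegf, another EGF receptor ligand, up by 0.71 and 0.69.

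Of 16 MAP kinase feedback genes tested, 7 rose and 1 fell between labels in conditioned medium on day 2. On day 4, 4 rose and 2 fell, beside the same 16.7 and 15.6% of all genes. The list holds Dusp, Spry and Spred genes, which dampen this signalling, and also Etv4, Etv5 and Phlda1. Its counts are therefore not those of dampening genes alone. Without replicate 3 of APCCM on day 2, 5 in all were called on that day in place of 8. Dusp6, an ERK phosphatase, stood at 35.7 ± 2.81 CPM in APCCM against 19.7 ± 2.72 CPM in WTCM on day 2 (0.85, SE 0.10, adjusted p = 5.4e-07) and gave 0.53 on day 4. Dusp1, an immediate early phosphatase of several MAP kinases, rose from day 2 to day 4 by 1.28 in WTCM and by 1.32 in APCCM (adjusted p = 4.1e-07 and 7.1e-08). Of 23 genes of the MAP kinase cascade and of SRF and ELK factors, 2 rose and 1 fell between labels on day 2 and 1 rose and 1 fell on day 4, all by under 0.32 on the log2 scale, a share below that of all genes. Between untreated labels 8 of the feedback genes rose and 4 fell, among them Phlda1 (1.85) upward and Spry4 (-1.73) downward. Of the cascade 8 rose and 11 fell, with Elk3, a partner of SRF, up by 3.98. These counts stand beside 62.5% of all genes called there.

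Of 27 other immediate early genes tested, 4 rose and 2 fell between labels in conditioned medium on day 2, and 2 rose and 5 fell on day 4, beside 16.7 and 15.6% of all genes. Nr4a1, an orphan nuclear receptor, gave 0.62 and 0.58 on these days, while Nfil3, a bZIP repressor, gave -1.07 and -0.60, and Nr4a2 -0.73 on day 4. By day 10 rose and 3 fell in WTCM and 10 rose and 5 fell in APCCM, beside 24.1 and 23.9% of all genes. Under these labels in turn Myc fell by 1.02 and 1.07 and Btg2, an antiproliferative gene, fell by 0.95 and 1.07. Between untreated labels 12 rose and 5 fell, 17 of 27 and near the 62.5% of all genes, and Ccn2 and Ccn1, matrix proteins and targets of YAP, gave 6.38 and 3.04. Of 9 further bZIP partners of the AP-1 and Maf families, 5 rose and 3 fell there, with Jdp2, a repressor that pairs with Jun, at 17.4 ± 2.79 against 0.832 ± 0.0958 CPM and Maf at 109 ± 9.34 against 5.30 ± 1.17 CPM (SD, n = 2 each; 4.36 and 4.33). In conditioned medium 2 of these 9 rose on day 2 and 1 on day 4, and 0 fell, near the share of all genes. Of 9 heat shock genes, which respond to handling stress, 0 rose and 3 fell between labels in conditioned medium on day 2. Of all genes 16.7% were called there, 8.54% higher and 8.15% lower. On day 4 Hspa1b rose (0.86, adjusted p = 0.00433), and Hspa8 (-0.24, adjusted p = 0.00143) and Dnajb1 (-0.23, adjusted p = 0.0065) fell. These stand beside 15.6% of all genes called on that day, 7.83% higher and 7.8% lower. Between untreated labels 0 rose and 3 fell, Hspd1 by 1.40, Hspe1 by 1.18 and Hsp90aa1 by 0.67 on the log2 scale, fewer than the 62.5% of all genes called there.

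The genes most like Fos over the 12 conditioned medium libraries, by Pearson's r of log2 CPM, were Phlda3 (0.97), Cdkn1a (0.97), Gdf15 (0.96), Ccp110 (0.96) and Hsd17b2 (0.96). For Jun they were Sox4 (0.95), Mex3d (0.95), App (0.94), Clcn7 (0.94) and Soat1 (0.93). These are the highest of 16510 values each, the libraries share their label groups, and no test attaches to them. Fos and Jun themselves had an r of -0.55 over the same libraries, and Fosb and Fosl1, both at low counts, an r of 0.80. Of the genes most like Atf3, Hoxa10 and Map6d1 lay at no more than 0.101 CPM, where r carries counting noise. Fosl1 was most like Ssu72 (0.89).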

How the data were processed

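RNA from 16 libraries of mouse intestinal organoids was read from the raw read counts that the authors deposited, 1 table per library with 46078 genes. The submitters' processing notes list HTSeq 0.6.1p1, HISAT2 2.1.0, Trimmomatic 0.36 and the mouse build GRCm38. The strand setting is not given in the sources used here. Per the labels, libraries were prepared with ribosomal RNA depletion, but histone and small RNA genes with Gm26917 held only 0.0193 to 0.0285% of counts in untreated libraries, which goes against that label, and how these 4 were prepared is unclear. The 5 summary lines per table were left out of library sizes: reads outside features were 4.78 to 19.2% of reads, reads with several alignments 26.5 to 38.9%. Symbols came from GENCODE M21, and promoters from RefSeq's table for GRCm38.p6.

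Groups were taken from the labels and titles. All 6 groups were fitted at once with edgeR 4.0.16 (limma 3.58.1, R 4.3.3): TMM scaling (factors 0.898 to 1.26), the filterByExpr filter on low counts (16510 genes kept), the quasi-likelihood test, and Benjamini-Hochberg adjustment over all genes tested, with 0.05 as the threshold and 10 residual degrees of freedom. Log2 fold changes are mutant label minus wild type label, or day 4 minus day 2. SE is the fold change divided by the square root of F, and 95% intervals use the t distribution with the 10 residual degrees of freedom. The test also borrows spread over genes, so these intervals are wider than its own would be. The fit was also run on simulated counts with the same spread for every gene and no replicate standing apart. That run says nothing of groups whose replicates differed as those of Junb and Jund did. Nothing says that libraries came from separate animals, so p-values measure the spread between libraries, which may be technical. CPM below about 1 rests on few counts.

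The 10 genes, the 6 context lists (112 genes), the 4 marker lists and the tests were chosen with earlier results of these data known. All 10 genes are named in each comparison of labels or days; from a context list, up to 3 genes with the largest called change per comparison are named, and for Fos, Fosl1, Jun and Atf3 genes with the highest correlation. Alternatives were DESeq2 1.42.0, RLE size factors, no filter, only the groups compared, no histone or small RNA genes (3007 left out), a replicate block, and each library left out in turn.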

Additional observations from a re-analysis of the deposited data

Results flagged for a closer look

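In each of these the difference between labels was tested for a change across days or across media, and the change passed with an adjusted p under 0.05 in edgeR's quasi-likelihood test. The label difference of Jun in conditioned medium changed by -0.76 (log2) from day 2 to day 4 (adjusted p = 7.8e-04), and the interval of that change ran from -1.04 to -0.48. It came from APCCM, where Jun went from 51.7 to 59.9 CPM on day 2 to 34.2 to 35.4 CPM on day 4.

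The label difference on day 2 in conditioned medium minus that without it was 3.47 for Fos and -2.35 for its partner gene Jun. It was 1.64 for Junb (adjusted p = 1.1e-04), 0.68 for Jund (0.0204), 0.60 for Egr1 (0.0167), -0.28 for Fosl2 (0.00261) and -0.80 for Atf3 (0.00987). The value for Egr1 was 0.44 without replicate 4 of the untreated mutant (adjusted p = 0.0994) and 0.45 without replicate 4 of untreated wild type (adjusted p = 0.146), and that for Jund was lost in the same ways, as given below. Libraries of the 2 media also differed in RNA content, depth and the sex of the cells, and these cannot be told apart from the medium in any of the 7 values. As APCCM and WTCM may name the source of the medium, the 2 label differences may not be the same contrast.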

How the results depend on the processing

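Of 918 alternative values for the 10 genes, 883 kept both direction and side of the threshold, 22 newly passed, 11 no longer passed and 2 reversed. Both reversed values were for Jund without replicate 4 of untreated wild type. Leaving out 1 library gave -1.01 to 0.19 for the untreated label difference of Jund and -0.071 to 1.13 for its difference between media. The number of the 10 called between labels in conditioned medium on day 2 was 3, and became 5 with no filter on low counts, 5 with only the groups compared and 5 with DESeq2. Genes called there numbered 1725 (without replicate 3 of APCCM) to 2484 with 1 library left out, against 2755. Genes called for the change of the label difference with day were 351, and 568 with only the groups compared. Fosb on day 2 passed with no filter (adjusted p = 0.0253) and with only the groups compared (0.0193). Atf3 on day 2 passed with RLE size factors, with no filter and with DESeq2, as given above. Fosl2 on day 2 passed with DESeq2 and Junb on day 2 with only the groups compared. Whether replicate numbers pair the libraries was not settled. Same-numbered deviations correlated at -0.0823 to 0.0679 over 18 pairs of same-numbered libraries in conditioned medium and at -0.294 without it. Between days in APCCM the same-numbered pairs gave 0.0633, 0.0679 and 0.0642 and the other pairs -0.0948 to 0.0353. With n = 2 in each untreated group, either way of pairing gives a value of the same size. With the replicate block, Jund between untreated labels gave -0.51 (adjusted p = 0.0605) and its difference between media 0.63 (0.0608), and 10088 genes were called between untreated labels in place of 10319. With the untreated numbers crossed, chosen after seeing the data, the block called 10564 genes. No scaling moved the median of all genes by 0.1. Depth limits Fosb and Fosl1, where counts of 0 to 64 per library leave wide intervals.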

Other observations

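Members of the target list that are secreted or act at the cell surface differed in how they went with day. In conditioned medium Hbegf rose from 9.83 ± 0.831 to 16.2 ± 1.57 CPM in WTCM and from 14.3 ± 0.878 to 23.1 ± 1.10 CPM in APCCM (SD, n = 3 each), while Areg fell from 33.7 ± 3.31 to 22.6 ± 1.45 and from 85.4 ± 3.77 to 40.2 ± 4.09 CPM. Both were higher in APCCM on both days (Hbegf 0.54 and 0.52, adjusted p = 2.7e-04 and 9.1e-05). Lif, a cytokine of the interleukin 6 family, was higher in APCCM too, at 11.9 against 8.21 CPM on day 2 and 15.05 against 9.92 CPM on day 4 (0.54 and 0.61, adjusted p = 3.8e-04 and 4.0e-05). Cdkn1a, the cell cycle inhibitor p21, which had an r of 0.97 with Fos over the 12 libraries, gave 0.34 and 0.66 between labels on these days (adjusted p = 3.7e-04 and 5.0e-08). Hbegf, Lif and Cdkn1a were named after their values had been seen. The matrix protease genes Mmp3 and Mmp10 and the cytokine gene Il6, classical AP-1 targets, had 0 counts in all 16 libraries.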
